A study of Mus musculus with 168 samples.

Results

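The DNA replication and S-phase genes described here are 38 genes of 19752 with a probe set of their own on the array. They were chosen by name and found by gene symbol in the array's probe annotation, and all 38 were present. Where a gene had several probe sets, the one with the highest mean log2 intensity over all arrays stood for it. The study asked how JAK inhibitors given to mice by mouth act on gene expression in sorted immune cells. It holds 168 arrays from 80 animals in 7 experiments, an experiment being the number that follows the letter J in a sample's name.

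All mice were male C57BL/6 mice, 6 weeks old, without a genetic change named in the labels. They received a plain vehicle labelled 0.5% MC (39 arrays), the same vehicle at pH 3 (7 arrays), or an inhibitor known only by a code: SB00526222 (43 arrays), SB00526221 (32), SB00513404 (20), SB00526226 (18) or SB00526228 (9). The labels give no dose. Cells labelled as coming from the spleen were macrophages (sorted as F4/80+, 33 arrays), dendritic cells (FLT3+, 20), natural killer (NK) cells (NK1.1+, 27), CD4 T cells (CD4+, 39) and granulocytes (Ly6G+, 16). Peritoneal macrophages gave the other 33 arrays, 24 of them sorted as F4/80+ ICAM2+ and 9 as F4/80+. Prolonged treatment means 14 or 15 treatments, or up to 28 in CD4 T cells, with cells taken 14 to 18 h after the last one. The 4 h schedule means 3 treatments with cells taken after 4 h, and all its arrays came from experiment 2. It had no vehicle arrays of its own schedule, so it was set against the vehicle of the prolonged schedule. Peritoneal cells were taken 1.5 to 6 h after 1 treatment (early), 18 to 28 h after 1 treatment (late), or 18 h after 14 treatments (repeated). The peritoneal vehicle used for the late and repeated arms was replicate 1 (experiment 23, 1 treatment, 19 h) and replicates 2 and 3 (experiment 25, 14 treatments, 18 h).

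A dividing cell copies its DNA once, in S phase. In the phase before it, the origin recognition complex with the loading factors CDC6 and CDT1 places the MCM helicase on DNA. S phase begins when CDC45 and the GINS complex join that helicase, and polymerases, the clamp loader and the nucleotide-making enzymes then carry the copying. Many of these genes are transcribed by E2F factors once cyclin-dependent kinases release them from the RB protein, so their RNA is low in resting cells and high in cycling ones. Macrophages of body cavities can renew themselves by dividing in place, while mature granulocytes no longer divide.

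Promoter sequences were taken from the RefSeq table of build GRCm38.p6, which holds entries for 32 of the 38 genes. E2F-type sites were searched as TTTCCCGC, TTTGGCGC, TTTCGCGC and TTTGCCGC on both strands, in the window from 250 bases before to 50 bases after each transcription start. A match was present for 15 of the 32 genes (46.9%), against 704 of all 27025 genes with a promoter of that length (2.6%). By promoter, it was present in 15 of the 38 in the gene set (39.5%), against 744 of all 32851 (2.26%). The site TTTCGCGC was the most frequent of the 4 sites in the gene set, in 8 promoters (21.1%) against 0.323% of all promoters. The sequences printed here are the 200 bases before the start, 5′ to 3′ along the gene's strand, with every match in capitals. They are shown because the first 4 are replication genes with such a match, while E2f8 and Tk1, the genes whose change in treated macrophages passed the test across all genes, had none in the window.
Mcm5 (chr8:75109309-75109508, plus strand): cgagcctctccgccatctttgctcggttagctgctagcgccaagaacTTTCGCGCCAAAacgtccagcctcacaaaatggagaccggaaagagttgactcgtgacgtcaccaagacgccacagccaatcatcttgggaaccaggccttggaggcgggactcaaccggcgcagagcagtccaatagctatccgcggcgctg
Mcm6 (chr1:128359706-128359905, minus strand): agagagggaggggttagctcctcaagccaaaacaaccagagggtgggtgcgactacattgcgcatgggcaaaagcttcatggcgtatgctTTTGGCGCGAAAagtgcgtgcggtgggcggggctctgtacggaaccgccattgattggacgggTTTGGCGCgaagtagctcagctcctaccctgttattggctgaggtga
Cdc6 (chr11:98907951-98908150, plus strand): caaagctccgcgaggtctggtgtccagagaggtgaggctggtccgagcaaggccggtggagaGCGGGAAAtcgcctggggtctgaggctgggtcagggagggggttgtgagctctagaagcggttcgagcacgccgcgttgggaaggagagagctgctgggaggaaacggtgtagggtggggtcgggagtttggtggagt
Dtl (chr1:191575545-191575744, minus strand): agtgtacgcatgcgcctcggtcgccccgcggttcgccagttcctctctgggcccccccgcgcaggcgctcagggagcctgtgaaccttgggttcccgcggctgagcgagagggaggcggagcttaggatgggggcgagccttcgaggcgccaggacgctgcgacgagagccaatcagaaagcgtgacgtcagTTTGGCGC
E2f8 (chr7:48881597-48881796, minus strand): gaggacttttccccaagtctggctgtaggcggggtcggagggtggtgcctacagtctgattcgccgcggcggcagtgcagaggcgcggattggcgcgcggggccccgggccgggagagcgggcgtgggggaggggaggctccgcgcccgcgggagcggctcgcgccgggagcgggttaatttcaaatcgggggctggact
Tk1 (chr11:117826015-117826214, minus strand): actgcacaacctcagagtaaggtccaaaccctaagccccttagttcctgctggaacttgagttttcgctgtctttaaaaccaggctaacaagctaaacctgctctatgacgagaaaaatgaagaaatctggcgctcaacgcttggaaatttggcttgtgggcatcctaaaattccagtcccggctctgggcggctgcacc
In Mcm5 the capitals hold 2 overlapping matches, and in Mcm6 they hold 3, of which 2 overlap. Cdc6 and Dtl hold 1 each. A match describes the letters only and does not show that a factor binds there.

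Values are log2 intensities, so a difference of 1 is a factor of 2. Changes come from limma fits within a cell population that adjust for experiment, and SE is the standard error of a log2 change. A gene is called when its p-value, adjusted by Benjamini-Hochberg over all genes tested in that comparison, is under 0.05. Counts at an unadjusted p under 0.05 are given as a description, and the first such count of a comparison stands beside the share of all genes tested that passed in the same direction. Genes above their array's median in fewer than 3 arrays of a population were not tested there. This left 35 members in spleen macrophages, 35 in dendritic cells, 33 in NK cells, 34 in CD4 T cells, 23 in granulocytes and 36 in peritoneal macrophages. Orc1, a subunit of the origin recognition complex, was tested in none of the 6 populations. P-values measure the spread between arrays of separate animals, and in sorted bulk cells a smaller share of cycling cells and less RNA per cycling cell cannot be told apart.

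Marker genes of each labelled type were high in its own arrays, but some arrays carried markers of another type as well. Lists of NK, CD4 T, granulocyte and dendritic cell markers each had a mean log2 of 9.67 or more in their own population. The arrays labelled spleen macrophage carried the macrophage list at 12.07 to 12.52 and the large peritoneal macrophage list (Gata6, Icam2, Timd4, Alox15, Cd5l, Saa3, Prg4) at 11.65 to 12.38. Peritoneal arrays read 11.71 to 12.29 on the latter list, and no array of another population exceeded 8.43. Red pulp macrophage markers (Vcam1, Spic, Hmox1, Slc40a1) stood at 6.53 to 7.08 in these spleen-labelled arrays, below the granulocyte and dendritic cell arrays. They are called spleen macrophages here as the labels do. The CD4 T cell array of SB00526228 on the prolonged schedule (experiment 2) carried the granulocyte list at 10.26, where the other CD4 T cell arrays read 5.06 to 5.85, and its CD4 T list stood at 11.62. Among dendritic cell arrays the granulocyte list reached 8.01, with a median of 6.23. By their correlation with the rest of their population, 16 arrays stood apart. They include vehicle replicate 1 and SB00526222 replicate 5 in spleen macrophages, and 4 CD4 T cell arrays of experiment 8.

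Without inhibitor, the replication genes stood highest in peritoneal macrophages and lowest in granulocytes. Peritoneal vehicle arrays came from experiments 12, 23 and 25, most of them after 1 treatment. Spleen vehicle arrays came from experiments 2, 3, 6 and 8, after 14 or 15 treatments. Only CD4 T cells also had spleen vehicle arrays in experiment 25. The fit between populations held no experiment term, so site cannot be fully told apart from experiment and schedule. The mean of the 38 genes was 8.28 ± 0.14 (SD, n = 9) in peritoneal macrophages, 8.07 ± 0.11 (n = 6) in dendritic cells and 7.95 ± 0.35 (n = 8) in spleen macrophages. It was 7.69 ± 0.16 (n = 3) in NK cells, 7.62 ± 0.29 (n = 7) in CD4 T cells and 6.89 ± 0.075 (n = 5) in granulocytes. Granulocyte arrays (6.77 to 6.95) lay below every vehicle array of the other populations, whose lowest value was 7.30 in CD4 T cells. Spleen macrophages ranged from 7.38 to 8.52 with a median of 8.0008 and overlapped each population but the granulocytes. Peritoneal macrophages ranged from 8.11 to 8.49 with a median of 8.25, and dendritic cells from 7.89 to 8.20 with a median of 8.10. In a limma fit over the 38 vehicle arrays, 35 of 36 members tested differed among populations, where 93.7% of all 12541 genes did. The exception was Gins2, a GINS subunit, at 8.15 to 8.42 in population means (adjusted p = 0.554 in limma).

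**Figure D1:**
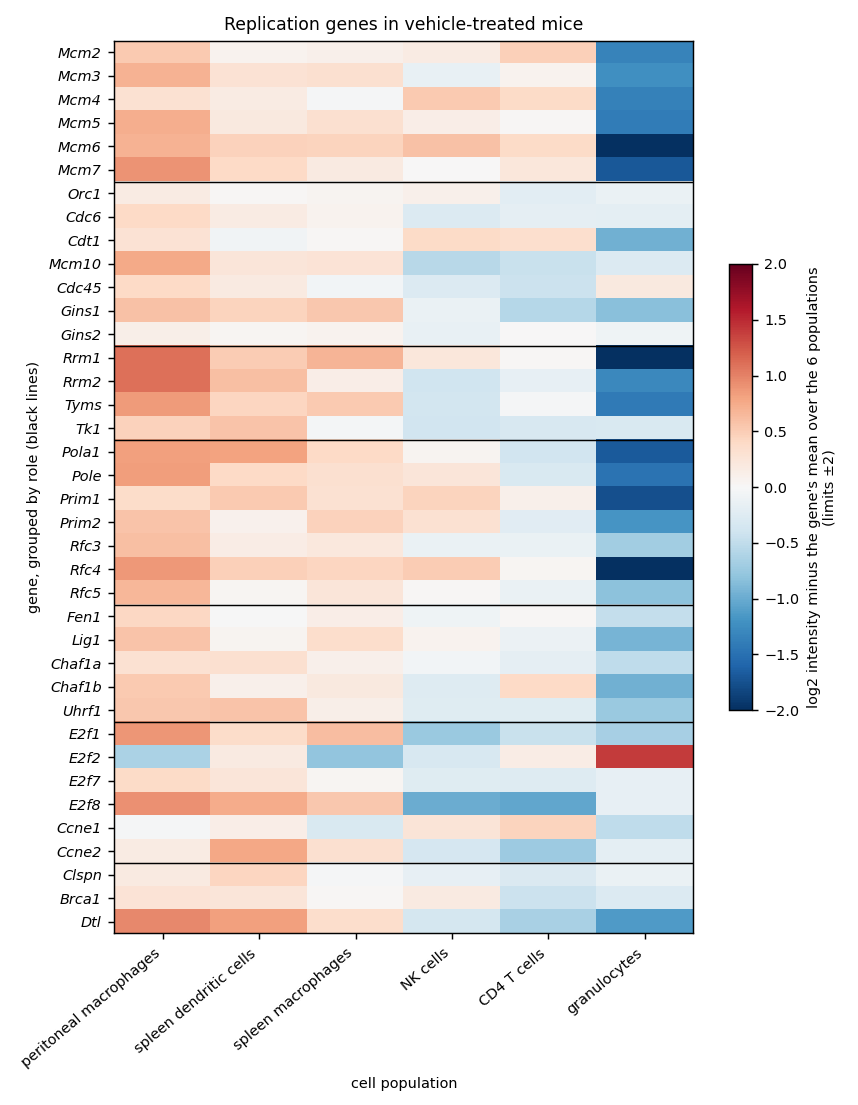
Mean log2 intensity of each of the 38 genes (vertical axis, grouped by role between black lines) in vehicle arrays of 6 cell populations (horizontal axis), shown as the difference from that gene's own mean over the populations, with colours limited at ±2. Granulocytes are blue for the MCM genes and Rrm1 and red for E2f2, while peritoneal macrophages are red in most of the genes.

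The MCM subunits, which form the ring-shaped helicase, showed a wide gap between granulocytes and the rest. Mcm6 read 9.68 ± 0.16 in peritoneal macrophages, 9.45 ± 0.12 in dendritic cells, 9.42 ± 0.49 in spleen macrophages, 9.56 ± 0.30 in NK cells, 9.36 ± 0.68 in CD4 T cells and 6.43 ± 0.26 in granulocytes. The first 5 means differed by less than the SD of the CD4 T cells, and the granulocytes stood clear. Mcm2 was also highest in peritoneal macrophages (8.98 ± 0.17) and lowest in granulocytes (7.11 ± 0.13), but here the CD4 T cells stood next to the top (8.93 ± 0.26). Its values in NK cells (8.60 ± 0.14), spleen macrophages (8.54 ± 0.58) and dendritic cells (8.52 ± 0.42) did not differ beyond their spread. Mcm5 was 9.43 ± 0.23 in peritoneal macrophages, 9.03 ± 0.50 in spleen macrophages, 8.90 ± 0.37 in dendritic cells, 8.83 ± 0.077 in NK cells, 8.73 ± 0.23 in CD4 T cells and 7.30 ± 0.19 in granulocytes.

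Cdc6, which loads the helicase, varied less, from 7.17 ± 0.15 in peritoneal macrophages to 6.51 ± 0.21 in NK cells, with granulocytes at 6.59 ± 0.12. The nucleotide-supply genes stood lower in lymphocytes than in peritoneal macrophages and dendritic cells. Rrm2, the cell-cycle-regulated subunit of ribonucleotide reductase, was 9.04 ± 0.21 in peritoneal macrophages, 8.54 ± 0.20 in dendritic cells, 8.07 ± 0.57 in spleen macrophages, 7.77 ± 0.72 in CD4 T cells, 7.54 ± 0.47 in NK cells and 6.65 ± 0.37 in granulocytes. Tyms, thymidylate synthase, was 8.68 ± 0.38 in peritoneal macrophages, 7.80 ± 0.62 in CD4 T cells, 7.45 ± 0.24 in NK cells and 6.41 ± 0.50 in granulocytes. Tk1, the thymidine kinase of the salvage route, was highest in dendritic cells (8.78 ± 0.25) and peritoneal macrophages (8.66 ± 0.37), with spleen macrophages at 8.16 ± 0.25. NK cells (7.82 ± 0.36), CD4 T cells (7.89 ± 0.29) and granulocytes (7.90 ± 0.086) did not differ in Tk1 beyond their spread.

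The E2F factors did not share 1 order. E2f2, an activating factor, ran opposite to most of the set. It was highest in granulocytes (9.51 ± 0.26), intermediate in dendritic cells (8.30 ± 0.17) and CD4 T cells (8.27 ± 0.43), and lowest in spleen macrophages (7.33 ± 0.17). E2f8, an atypical repressive factor that is itself an E2F target, was 8.86 ± 0.39 in peritoneal macrophages, 8.69 ± 0.41 in dendritic cells, 8.49 ± 0.32 in spleen macrophages and 7.78 ± 0.71 in granulocytes. NK cells (6.95 ± 0.73) and CD4 T cells (6.90 ± 0.86) were lowest in E2f8. Ccne1, which encodes cyclin E1, was highest in CD4 T cells (8.15 ± 0.19) and NK cells (7.96 ± 0.078) and lowest in granulocytes (7.21 ± 0.12).

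Neighbours in the order of the mean were then compared gene by gene with limma. Dendritic cells against peritoneal macrophages had 1 of 36 members higher (E2f2, by 0.79) and 14 lower, among them Rfc5, a clamp-loader subunit (-0.62), and Rrm1, the large ribonucleotide reductase subunit (-0.61), where 51% of all genes were called in either direction. This count was 8 without dendritic cell vehicle replicate 6. Spleen macrophages against dendritic cells had 0 members higher and 4 lower (E2f2 -0.98, Tk1 -0.64, Ccne1 -0.44 and Uhrf1, a reader of newly copied DNA, -0.44), where 50.7% of all genes were called. The total was 7 without dendritic cell replicate 6 or without spleen macrophage replicates 5 or 8. These shares of members lay below those of all genes.

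Spleen macrophages against NK cells had 6 members higher and 3 lower, where 45.3% of all genes were called. E2f8 was higher by 1.53 (SE 0.36), E2f1, the best-known activating factor, by 1.29, Tyms by 0.87, and Mcm10, which helps start the helicase, by 0.80. Ccne1 (-0.57), Mcm4 (-0.54) and E2f2 (-0.48) were lower in the macrophages. NK cells against CD4 T cells differed in 3 members, Brca1 of DNA repair (0.60), Chaf1b of the chromatin assembly factor (-0.64) and E2f2 (-0.48), where 20.2% of all genes were called. None of the 3 was called without NK replicate 1, and 1 was called without NK replicate 2 or CD4 T cell replicate 6. CD4 T cells exceeded granulocytes in 22 members and were below them in 3 (E2f2 -1.23, E2f8 -0.88, Cdc45 -0.64), where 74.7% of all genes were called. The differences were largest for Mcm6 (2.95, SE 0.21), Rrm1 (2.57) and Rfc4, another clamp-loader subunit (2.37).

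The macrophages from the 2 labelled sites were close to each other. Their vehicle arrays shared no experiment, so site and experiment cannot be told apart in this fit. Of all genes 0.502% were called between them, and 4 of 36 members were, all lower in the spleen-labelled cells: Rrm2 (-1.03, SE 0.22), Mcm7 (-0.72), Mcm10 (-0.51) and Cdc45, the helicase partner (-0.47). This count rested on single arrays. It was 0 without peritoneal early vehicle replicate 6 or spleen macrophage replicate 7, 1 without spleen macrophage replicates 1, 3 or 6, and 2 without spleen macrophage replicate 4, peritoneal early replicate 4 or peritoneal late replicates 2 or 3. It was also 0 against the early peritoneal vehicle alone, where 0.0319% of all genes were called.

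Prolonged inhibitor treatment was examined first in spleen macrophages, where 18 inhibitor arrays stood against 8 of plain vehicle. The mean of the 38 genes was 7.31 to 7.94 under inhibitors (7.58 ± 0.18, SD) and 7.38 to 8.52 under vehicle (7.95 ± 0.35). The ranges overlapped, but each of the 18 inhibitor arrays lay below the vehicle mean of its own experiment. The difference adjusted for experiment was -0.31 (SE 0.10). Within experiments it was -0.18 in experiment 2, -0.21 in experiment 3, -0.43 in experiment 6 and -0.38 in experiment 8, and the single vehicle array of experiment 2 stood apart from its population.

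No member was called in this pooled comparison, where 0.00908% of all 11008 genes were. At an unadjusted p under 0.05, 24 of the 35 members were lower and 0 higher, where 3.03% of all genes were lower. All 35 log2 changes were negative, with a median of -0.30 against 0.0052 over all genes. The count was 14 without vehicle replicate 8 and between 14 and 31 over all left-out arrays. The number called in limma was 8 without vehicle replicate 7, where 0.373% of all genes were called. It was 2 without SB00526222 replicate 4 (0.0909% of all genes), and 1 without SB00526226 replicate 1 (0.0183%) or replicate 3 (0.0273%).

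**Figure D2:**
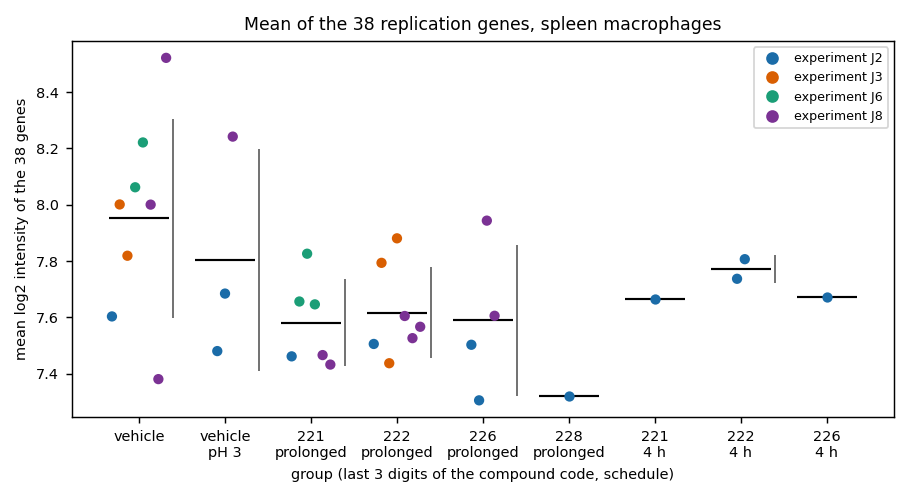
Mean log2 intensity of the 38 genes (vertical axis) on each spleen macrophage array by group and schedule (horizontal axis), coloured by experiment, with a black line for the group mean and a grey bar for ±1 SD where a group has over 1 array. Vehicle arrays run from 7.38 to 8.52 and prolonged inhibitor arrays from 7.31 to 7.94, and both the highest and the lowest vehicle array belong to experiment 8.

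Experiment 8 gave 10 of the 26 arrays in this comparison, and its macrophages were taken at either of 2 hours. At 17 h the single vehicle array (replicate 7) read 7.38, and the 4 inhibitor arrays read 7.43 (SB00526221), 7.53 and 7.57 (SB00526222) and 7.94 (SB00526226), all above it. At 14 h vehicle replicates 6 and 8 read 8.0005 and 8.52 and the pH 3 vehicle 8.24, while the inhibitor arrays read 7.47, 7.61 and 7.61, all below them. The lower mean in experiment 8 was thus seen at 14 h and not at 17 h. With experiment 8 split by hour, a setting chosen after seeing the data, the difference over all experiments was -0.29, 22 members were lower at an unadjusted p under 0.05, and 0 were called.

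By role, 5 of 6 MCM genes, 4 of 6 origin factors, all 4 nucleotide-supply genes, 3 of 7 polymerase, primase and clamp-loader genes, 2 of 5 Okazaki and chromatin assembly genes, 5 of 6 E2F and cyclin E genes, and Dtl, the 1 gene of checkpoint, repair and licensing control that was tested in these cells, were lower at an unadjusted p under 0.05. The log2 changes of the MCM genes lay between -0.35 (Mcm6) and -0.20 (Mcm2). Mcm5 ran from 8.26 to 9.13 (median 8.55) under inhibitors and from 8.34 to 9.84 (median 9.13) under vehicle, a difference of -0.32 (SE 0.13). The ranges overlapped.

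Among origin factors, Mcm10 read 6.95 to 7.50 (median 7.20) under inhibitors and 7.07 to 8.13 (median 7.60) under vehicle, a difference of -0.35 (SE 0.10). All 18 inhibitor arrays were below their experiment's vehicle mean for Mcm10. Cdc6 gave -0.06 (SE 0.10), the smallest of this role, with 8 of 18 arrays below. Cdt1 gave -0.19 and the GINS subunits Gins1 and Gins2 gave -0.48 and -0.16.

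The nucleotide-supply genes were the 1 role of several genes in which each passed the unadjusted threshold. Tk1 ran from 7.41 to 8.13 (median 7.64) under inhibitors and from 7.67 to 8.45 (median 8.22) under vehicle, a difference of -0.48 (SE 0.09, adjusted p = 0.145 in limma). Tyms ran from 7.35 to 8.15 (median 7.95) against 7.74 to 8.90 (median 8.26), a difference of -0.40 (SE 0.11, adjusted p = 0.226 in limma). For Tk1 and Tyms alike, 18 of 18 inhibitor arrays were below their experiment's vehicle mean, and the ranges overlapped. Rrm2 gave -0.50 (SE 0.16), with 6.85 to 8.12 (median 7.33) against 7.36 to 8.78 (median 8.06), and its partner Rrm1 gave -0.30.

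Among copying enzymes, Prim1, the catalytic primase subunit, gave -0.60 (SE 0.16), with 6.04 to 7.46 (median 6.53) against 6.25 to 8.05 (median 7.27). Pole, the leading-strand polymerase, gave -0.43, Prim2, the other primase subunit, -0.18, and Pola1, the initiating polymerase, -0.15. The clamp-loader genes Rfc3, Rfc4 and Rfc5 gave -0.17, -0.36 and -0.11. Of the genes that finish the lagging strand, Lig1, a DNA ligase, gave -0.35 and Fen1, the flap nuclease, -0.05. The chromatin assembly subunits Chaf1a and Chaf1b gave -0.16 and -0.40, and Uhrf1 gave -0.22.

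E2f8 ran from 7.14 to 8.33 (median 7.75) under inhibitors and from 7.86 to 8.87 (median 8.47) under vehicle, a difference of -0.63 (SE 0.13, adjusted p = 0.145 in limma). All 18 inhibitor arrays were below their experiment's vehicle mean for E2f8, and the ranges overlapped between 7.86 and 8.33. Ccne2, the second cyclin E gene, gave -0.64 (SE 0.22) and Ccne1 -0.28 (SE 0.08). The other E2F factors gave -0.33 (E2f1), -0.21 (E2f7, the other atypical factor) and -0.15 (E2f2). Dtl, the ligase adaptor that marks CDT1 for destruction in S phase, gave -0.51 (SE 0.16), with 17 of 18 arrays below.

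**Figure D3:**
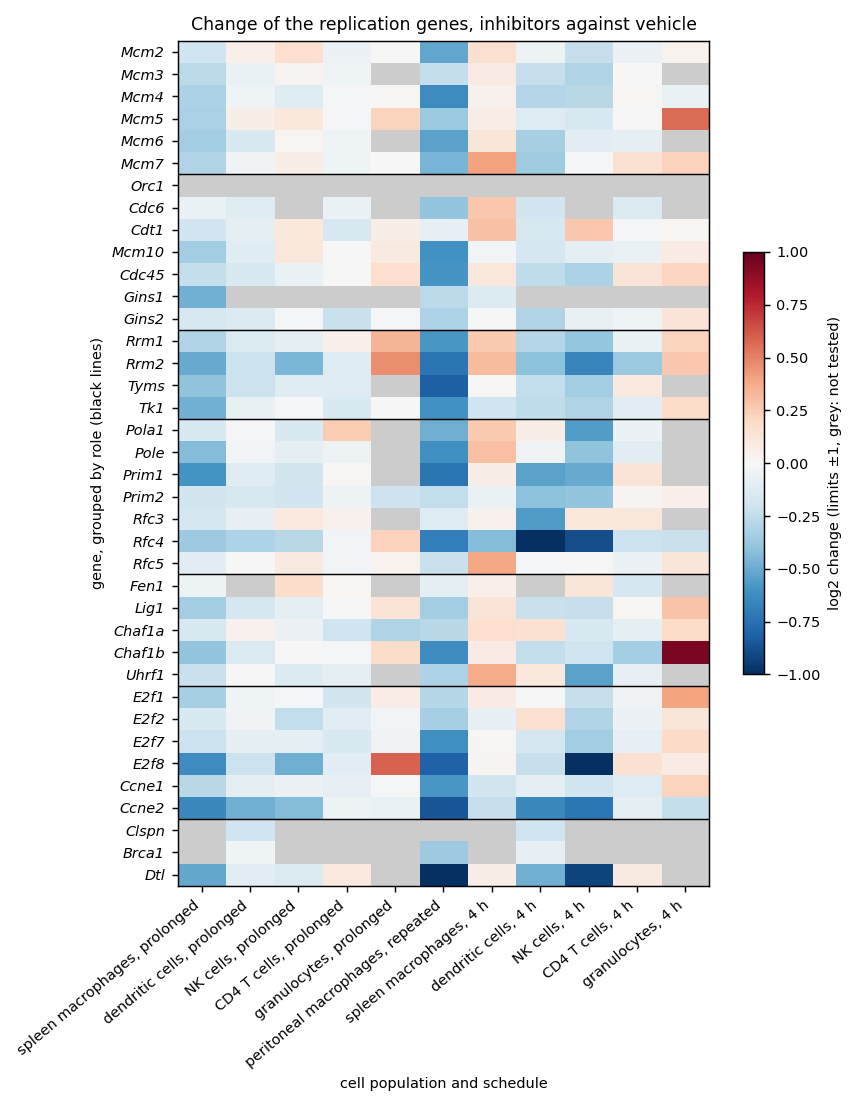
Log2 change against vehicle (colour, limited at ±1) for each of the 38 genes (vertical axis, grouped by role) in 11 pooled inhibitor comparisons (horizontal axis), with grey for genes not tested there. Spleen macrophages after prolonged treatment and peritoneal macrophages after repeated treatment have negative values for every gene tested, while CD4 T cells and granulocytes on the prolonged schedule have values of both signs.

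Other cell-cycle lists were read beside these genes. Of 27 mitosis genes tested, 26 were lower at an unadjusted p under 0.05 (median -0.44), as were 17 of 37 other replication genes (median -0.16), 3 of 13 E2F and RB regulators and 2 of 12 genes for G1 cyclins, kinases and brakes. The mean of 30 mitosis genes was 6.81 to 7.89 (median 7.16) under inhibitors and 7.29 to 8.41 (median 7.69) under vehicle. The macrophage marker list was 12.07 to 12.52 under inhibitors and 12.09 to 12.47 under vehicle, and the B cell list 6.08 to 7.33 and 6.34 to 7.45. The part of other cell types in the result was not tested.

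Compound by compound, SB00526221 in spleen macrophages gave the only called members among the treatment comparisons. Its 6 arrays read 7.28, 7.86, 8.30, 7.66, 7.48 and 7.35 for E2f8, against 8.39, 8.51, 8.43, 8.59, 8.87, 8.39, 7.86 and 8.85 under vehicle. The groups overlapped: SB00526221 replicates 2 and 3 lay above vehicle replicate 7 and below every other vehicle array. E2f8 fell by 0.89 on the log2 scale (SE 0.17, adjusted p = 0.030 in limma). For Tk1 the 6 arrays read 7.73, 7.56, 7.60, 7.74, 7.41 and 7.47, against 8.28, 8.15, 8.02, 8.04, 8.33, 8.32, 7.67 and 8.45. Only vehicle replicate 7, at 7.67, lay inside the inhibitor range. Tk1 fell by 0.58 (SE 0.12, adjusted p = 0.046 in limma).

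These 2 of 35 members stand against 0.164% of all genes called in that comparison. At an unadjusted p under 0.05, 24 members were lower and 0 higher, where 5.11% of all genes were lower. The median change was -0.38 and the mean of the 38 genes differed by -0.40 (SE 0.13). Rrm2 had the next largest statistic, at -0.81 (SE 0.22, adjusted p = 0.116 in limma). Outside the set, Plk1 (-0.83) and Kif2c (-0.54) of mitosis and Cdkn2c, a brake on the G1 kinases (-0.53), were called as well.

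Both calls lay close to the threshold. E2f8 kept its call in 6 of 14 fits that left out 1 array (adjusted p from 0.013 to 0.204 in limma) and lost it without vehicle replicates 1, 4, 5 or 8 or SB00526221 replicates 2, 4, 5 or 6. Tk1 kept its call in 3 of 14 such fits (adjusted p from 0.020 to 0.251 in limma), those without SB00526221 replicate 1, vehicle replicate 3 or vehicle replicate 7. Without vehicle replicate 7, 6 members were called, and 0.6% of all genes. The other probe set of Tk1 gave -0.59 and an adjusted p of 0.132 in limma, and the 2 probe sets correlated at r = 0.863 over all arrays. The count at an unadjusted p under 0.05 ran from 16 to 30.

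**Figure D4:**
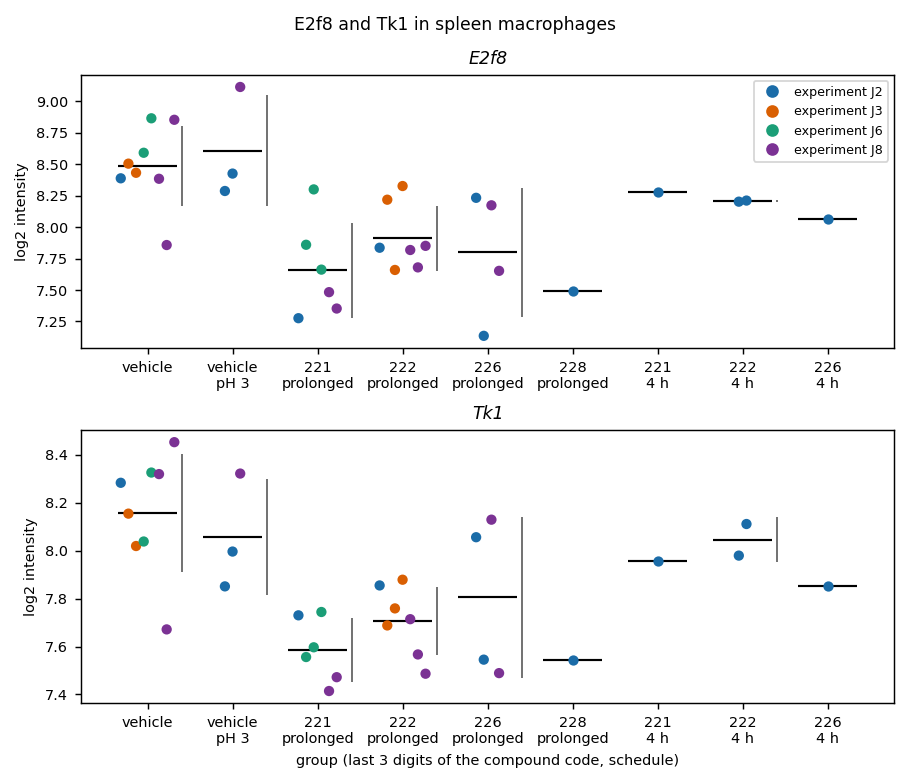
Log2 intensity of E2f8 (upper panel) and Tk1 (lower panel) on each spleen macrophage array by group and schedule, coloured by experiment, with a black line for the group mean and a grey bar for ±1 SD where a group has over 1 array. The 6 SB00526221 arrays on the prolonged schedule run from 7.28 to 8.30 for E2f8 and from 7.41 to 7.74 for Tk1, and the vehicle arrays from 7.86 to 8.87 and from 7.67 to 8.45.

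SB00526222 (7 arrays) had 18 members lower at an unadjusted p under 0.05, where 1.37% of all genes were, with a median of -0.31 and a difference of -0.29 (SE 0.13) in the 38-gene mean. That count was 6 without vehicle replicate 8, 8 without SB00526222 replicate 3, 9 without vehicle replicate 2, and 10 without vehicle replicate 6 or SB00526222 replicates 5, 6 or 7. It was 10 without the arrays that stood apart and 9 with experiment 8 split by hour. SB00526226 (4 arrays) had 4 members lower, where 1.64% of all genes were, with a median of -0.19. That count was 14 without vehicle replicate 7 and 1 without vehicle replicates 1 or 8, SB00526226 replicates 2 or 4, or the arrays that stood apart. Against the pH 3 vehicle, SB00526226 had E2f8 at -0.845 and 5 members lower at an unadjusted p under 0.05, where 1.7% of all genes were. These pH 3 arrays were all taken at 14 h and those of SB00526226 at 14 or 17 h.

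Comparisons between compounds in limma called 0 members in each of 16 pairs over all populations, where 0% to 0.0183% of all genes were called. In CD4 T cells SB00526221 and SB00526226 shared no experiment with SB00513404, so those pairs were linked only through other groups. Only 1 SB00526222 array shared an experiment with SB00513404 in CD4 T cells, and only 1 with SB00526221 in dendritic cells. At an unadjusted p under 0.05, 0 to 5 members of a pair differed in either direction, where 1.45% to 7.74% of all genes did. The highest count was that of SB00526228 against SB00526221 in NK cells, with 5 of 33 members higher, where 3.29% of all genes differed. In spleen macrophages E2f8 under SB00526222 minus SB00526221 was 0.40 (95% interval -0.0011 to 0.79), and under SB00526226 minus SB00526221 it was 0.42 (-0.01 to 0.86). For Tk1 these differences were 0.15 (-0.15 to 0.44) and 0.24 (-0.08 to 0.56). The intervals hold differences near 0 as well as larger ones, and the compounds are not shown to act alike.

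At 4 h after 3 treatments the lower mean was not seen in spleen macrophages when experiment was taken into account. The 4 arrays read 7.67, 7.74, 7.81 and 7.67 in the 38-gene mean, all above the vehicle array of experiment 2 (replicate 1, 7.60), which stood apart. Without adjustment the 4 h mean was 7.72, below the 7.95 over all vehicle arrays. The adjusted difference from vehicle was 0.08 (SE 0.17), and 1 member, Rfc5 at 0.39, was higher at an unadjusted p under 0.05, where 4.13% of all genes were.

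Set against prolonged treatment with the same 3 compounds (17 arrays), the 4 h arrays had 21 of 35 members higher at an unadjusted p under 0.05, where 6.91% of all genes were. No member was called, where 0.136% of all genes were. The plain means were 7.72 and 7.60 with overlapping ranges, the difference adjusted for experiment was 0.38 (SE 0.16), and within experiment 2 it was 0.28. The largest statistics were those of Cdt1 (0.49, SE 0.14), Mcm7 (0.72, SE 0.21) and Pole (0.73, SE 0.22), with adjusted p from 0.117 to 0.140 in limma. The count was 12 without SB00526222 4 h replicate 2. Of the mitosis list, Prc1 (1.09), Cenpa (0.79) and Ndc80 (0.55) were called in this comparison.

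In peritoneal macrophages after repeated treatment, the 38-gene mean was 7.63 and 8.40 under SB00513404 and 7.41 and 7.73 under SB00526222, against 8.15, 8.25 and 8.49 under vehicle. SB00513404 replicate 2 lay within the vehicle range and the other 3 arrays lay below it. The macrophage marker list was 12.38 to 12.46 under inhibitors and 12.13 to 12.36 under vehicle, with 3 of its 5 genes higher by their medians. The neutrophil precursor list was 6.43 to 6.64 and 6.67 to 6.71, with 1 of 5 genes higher, and Prtn3 was its 1 gene above the array median. Neither list overlapped between the groups, and their part in the result was not tested. The adjusted difference was -0.48 (SE 0.20). In limma no member was called and 0% of all 10869 genes were, with 360 lower and 161 higher at an unadjusted p under 0.05. By that unadjusted measure 20 of 36 members were lower and 0 higher, where 3.31% of all genes were lower, and all 36 changes were negative (median -0.50).

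Dtl read 7.40 and 8.44 under SB00513404 and 6.68 and 7.59 under SB00526222, against 8.10, 8.28 and 9.22, a difference of -1.07 (SE 0.25, adjusted p = 0.977 in limma). The groups overlapped through the second SB00513404 array. E2f7 gave -0.61, Mcm4 -0.63, Tyms -0.81 and E2f8 -0.81. By role, 5 of 6 E2F and cyclin E genes and 3 of 4 nucleotide-supply genes were lower at an unadjusted p under 0.05, against 1 of 5 Okazaki and chromatin assembly genes. Within experiment 25 the mean differed by -0.58, and all 38 genes were lower.

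The count after repeated treatment was 4 without vehicle late replicate 3 and 5 without SB00526222 replicate 1. The mean of the mitosis genes was 6.91 to 8.84 under inhibitors and 7.98 to 8.94 under vehicle, and 14 of 30 mitosis genes were lower at an unadjusted p under 0.05. After 1 treatment, early arrays differed from vehicle by -0.14 (SE 0.13), with -0.29 in experiment 12, 0.11 in experiment 23 and -0.07 in experiment 25. They had 2 members lower at an unadjusted p under 0.05 (Pola1 -0.23, Mcm4 -0.25), where 1.66% of all genes were. Late arrays differed by -0.15 (SE 0.18) and had 0 members lower by that measure, where 2.01% of all genes were.

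In NK cells at 4 h, the mean of the 38 genes was 7.36 to 7.44 on 5 arrays, against 7.87, 7.57 and 7.62 under vehicle, without overlap. The red pulp macrophage list stood at 6.59 to 7.45 (median 7.04) on the 4 h arrays and 6.16 to 6.69 (median 6.25) under vehicle, with each of its 4 genes higher by their medians and Spic below the array median on every array. The macrophage list was 6.59 to 7.43 and 6.53 to 6.98, and the NK list 11.98 to 12.34 and 12.05 to 12.38. The part of other cells in the result was not tested. The adjusted difference was -0.32 (SE 0.11). No member was called, where 0.119% of all genes were, and 9 of 33 were lower at an unadjusted p under 0.05, where 6.91% of all genes were. E2f8 read 5.62, 6.03, 6.42, 5.99 and 6.07, against 7.79, 6.55 and 6.50, a difference of -1.10 (SE 0.31, adjusted p = 0.183 in limma). These ranges did not overlap. All 5 of the 4 h values lay below the lowest array median of the series (6.90). Under vehicle, E2f8 was above the array median on 1 of 3 arrays.

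Dtl in the same NK cells read 6.28, 6.46, 6.62, 6.47 and 6.25, against 7.79, 6.9986 and 6.45, a difference of -0.92 (SE 0.26, adjusted p = 0.183 in limma), with overlap. Its 4 h values also lay below 6.90, and it was above the array median on 1 of 3 vehicle arrays. Rrm2 gave -0.66 (SE 0.24). Leaving out vehicle replicate 1 gave 1 lower member by that unadjusted measure. There were 4 without SB00526226 4 h replicate 2 and 5 without its replicate 1 or vehicle replicate 3. The mitosis mean was 6.53 to 6.66 on the 4 h arrays and 6.56 to 7.31 under vehicle. After prolonged treatment the NK difference was -0.09 (SE 0.10), and Rrm2 (-0.46) was the 1 member lower at an unadjusted p under 0.05, where 2.5% of all genes were. Only 9 of the 19 prolonged inhibitor arrays had NK vehicle in their own experiment.

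NK cells at 4 h against prolonged inhibitors gave -0.20 (SE 0.10) in the 38-gene mean, with 0 members called and Dtl the nearest (-0.72, adjusted p = 0.107 in limma), where 1.42% of all genes were called. By an unadjusted p under 0.05, 4 members and 6.97% of all genes were lower. In the same comparison the G1 genes Cdk6 (-1.07), Myc (-0.96) and Ccnd2 (-0.83) were called lower, and Tfdp2, a partner of the E2F factors (0.44), higher.

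In CD4 T cells the 38-gene mean differed between experiments. It was 7.23 to 7.32 in experiment 25, 7.32 to 7.48 in experiment 2, 7.53 to 7.91 in experiment 6, 7.70 to 7.95 in experiment 3 and 7.57 to 8.26 in experiment 8. In experiment 8 the macrophage marker list was 6.55 to 8.26 and the B cell list 6.30 to 7.18. In experiment 2 these lists reached 8.61 and 6.52, and the part of other cells was not tested. Prolonged inhibitors differed from vehicle by -0.04 (SE 0.06), with Chaf1a (-0.20) and Gins2 (-0.22) lower at an unadjusted p under 0.05, where 2.07% of all genes were. Without the array that carried granulocyte markers, an alternative chosen after seeing the data, the difference was -0.05 and 3 members were lower by that measure. The 4 h arrays differed by -0.05 (SE 0.10), with 0 members lower, where 0.856% of all genes were.

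The pH 3 vehicle in CD4 T cells read 7.45, 8.14 and 8.26, and differed from plain vehicle by 0.23 (SE 0.10) in the mean. By an unadjusted p under 0.05, 6 members were higher, where 2.21% of all genes were, among them E2f8 at 0.57. That count was 0 without pH 3 replicate 3, 2 without vehicle replicate 1 or the arrays that stood apart, and 17 without pH 3 replicate 1. SB00526226 (7.70, 7.78 and 7.99) differed from the pH 3 vehicle by -0.27 (SE 0.11), with 8 of 34 members lower by the same measure, where 8.39% of all genes were. The pH 3 arrays were all taken at 14 h and those of SB00526226 at 14 or 17 h. Hour and treatment thus cannot be fully told apart in this fit. The count of lower members was 3 without pH 3 replicate 3, 4 without pH 3 replicate 2 or SB00526226 replicate 2, 5 without SB00526226 replicate 1 and 15 without pH 3 replicate 1 or SB00526226 replicate 3. It was 2 without the arrays that stood apart and 4 with experiment 8 split by hour. E2f1 had the largest statistic (-0.71, adjusted p = 0.305 in limma). Without SB00526226 replicate 3, 2 members were called, where 2.19% of all genes were. With all arrays, 0 members and 0% of all genes were called.

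In dendritic cells and granulocytes no treatment comparison called a member. Prolonged inhibitors in dendritic cells differed by -0.10 (SE 0.10) with 0 members lower at an unadjusted p under 0.05, where 0.564% of all genes were, the 3 largest statistics being those of Ccne2 (-0.48), the checkpoint adaptor gene Clspn (-0.20) and Rfc4 (-0.31). The 2 dendritic cell arrays at 4 h differed by -0.24 (SE 0.17), and 3 members were lower by that measure (Rfc4, Rfc3 and Prim2), where 2.21% of all genes were. Rfc4 read 8.63 under SB00526222 and 8.03 under SB00526226, against 9.84, 9.32, 8.61, 9.34, 9.46 and 9.93 under vehicle, a difference of -1.21 (SE 0.33, adjusted p = 0.808 in limma). The groups overlapped through vehicle replicate 3.

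In granulocytes the prolonged difference was 0.04 (SE 0.07). Rrm2, at 0.47, was the 1 member higher at an unadjusted p under 0.05, where 6.12% of all genes were. SB00526222 alone had 2 members higher by that measure, E2f8 at 1.00 (SE 0.44) and Rrm2 at 0.70, where 7.01% of all genes were. All 3 of its arrays came from experiment 3, which held a single granulocyte vehicle array, so this comparison rested on that array. The 4 h difference was 0.13 (SE 0.10), with Chaf1b at 0.94 (SE 0.30) the 1 member higher, where 2.4% of all genes were. Against prolonged inhibitors Chaf1b at 4 h was 1.26 higher (SE 0.39, adjusted p = 0.610 in limma), again the 1 member at an unadjusted p under 0.05, where 3.76% of all genes were. No 4 h array shared an experiment with a prolonged array of this comparison. The link ran only through vehicle arrays, so schedule and experiment cannot be fully told apart here.

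Whether the prolonged effect differed among the 5 spleen populations was tested in limma with the animal as a random block. The 23 members that passed the filter in each of these populations could be tested, and 0 of them differed, where 0.113% of all genes did. At an unadjusted p under 0.05, 4 of the 23 and 3.48% of all genes differed. The smallest of these was that of E2f8 (adjusted p = 0.823 in limma). So the lower values in spleen macrophages are not shown to be particular to them. Over all 57 comparisons, 2 of 1914 tests of a member passed the adjusted threshold, where 0.0392% of tests of any gene did, and 201 (10.5%) passed an unadjusted p under 0.05, where 4.74% of tests of any gene did.

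The genes moved together from array to array in some populations more than in others. After removing group and experiment, the median correlation between pairs of the 38 genes was 0.70 in peritoneal macrophages, 0.64 in spleen macrophages, 0.48 in dendritic cells, 0.32 in CD4 T cells, 0.31 in NK cells and 0.08 in granulocytes, each over 703 pairs on the same arrays. All 38 genes entered, also those that failed the filter, and in granulocytes only 23 passed it. Residual degrees of freedom were 6 in granulocytes, 11 in dendritic cells, 16 in NK cells, 21 in spleen macrophages and CD4 T cells, and 22 in peritoneal macrophages. The part of these limits in the differences between populations was not tested. In spleen macrophages Dtl (0.96), Mcm5 (0.95) and Mcm4 (0.94) followed the mean of the other 37 genes most closely, and Pola1 least (0.29). Per array, the 38-gene mean and the mean of the mitosis genes correlated at 0.80 in NK cells, 0.83 in spleen macrophages, 0.90 in dendritic cells, 0.91 in granulocytes, 0.94 in peritoneal macrophages and 0.97 in CD4 T cells, over 16 to 39 arrays. Both means come from the same hybridisations and share experiments, so these correlations are a description.

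**Figure D5:**
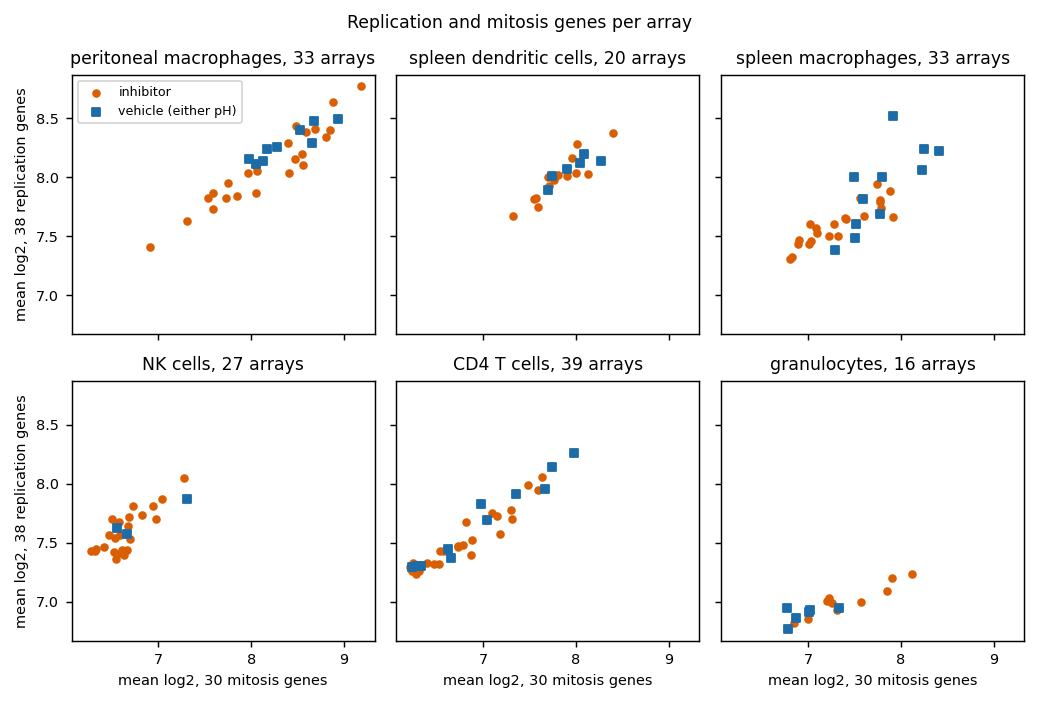
Mean log2 intensity of the 38 replication genes (vertical axis) against that of 30 mitosis genes (horizontal axis), 1 point per array and 1 panel per population, with vehicle arrays of either pH as squares and inhibitor arrays as circles. In each panel arrays with a higher mitosis mean tend to have a higher replication mean, and granulocytes lie lowest on the replication axis.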

How the data were processed

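Gene expression was measured on Affymetrix Mouse Gene 1.0 ST arrays, 1 per sorted population and animal. The deposited values are linear intensities per probe set, summarised with Affymetrix Power Tools and RMA per the submitters' processing notes. Intensities were converted to log2 with no pseudocount in R 4.3.3, and models were fitted with limma 3.58.1. Each population had its own fit with group and experiment as terms. The vehicle comparison between populations and the test of the prolonged effect among spleen populations used the animal as a random block. Array medians lay between 119.5 and 142.3, and no identical arrays were found. The number of arrays limits the precision.

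All 38 members were accounted for. Named members were taken from those past the adjusted threshold, otherwise from the 3 with the largest statistics, and from 9 members followed across populations. Not every gene that these rules cover is named in each population or comparison. Called genes of the other lists are named as well, and further members by role, chosen after their values were seen. Members and lists were chosen with earlier results of these data known. Scripts were tested on simulated data. Alternatives were quantile normalization, other filters, a pseudocount of 16, probe-set averaging, array weights, other experiment terms and leaving out each array.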

Additional observations from a re-analysis of the deposited data

Results flagged for a closer look

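Tk1 under vehicle in dendritic cells had 1 sample far from the others: replicate 1, of experiment 2, read 9.25 in log2 intensity and the next highest array 8.82. That gap was 0.638 of the range of the 6 arrays. Of 74 sets of values examined in this way, 1 had a gap above the 95% critical value of Dixon's test, which chance passes in about 1 set in 20.

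The change in the 38-gene mean at 4 h, adjusted for experiment, differed in direction between populations. All 4 h arrays of spleen macrophages and of granulocytes lay above the vehicle of their own experiment, a single array of the prolonged schedule in each population. That of the macrophages stood apart. All 4 h arrays of dendritic cells and of NK cells lay below the vehicle mean of their own experiment. Without adjustment the macrophage mean was 7.72 at 4 h and 7.95 over all its vehicle arrays, the opposite direction. The other populations named here kept their direction. The 4 h change of spleen macrophages exceeded that of dendritic cells by 0.32 and that of NK cells by 0.4 on the log2 scale. The 4 h change of granulocytes exceeded that of dendritic cells by 0.38 and that of NK cells by 0.45. These differences were not tested.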

How the results depend on the processing

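No paired analysis was possible because the replicate numbers only name arrays in accession order and no animal gave more than 1 array to a population, so treatment comparisons held no pairs. Fits between populations used the animal, which several populations share, as a random block, and without it each of their counts of members stayed within 1.5 times the value reported. Over the counts of members, 749 values under an alternative stayed within 1.5 times that reported and 40 did not. With an array left out 926 did and 64 did not. A count of 0 that stayed 0 is among those that stayed, and a member was called in only 1 of the 57 comparisons. The values that stayed are therefore in part zeros and do not show that the other counts were stable. Directions of single genes were followed only for the members with the largest statistics in some treatment comparisons of macrophages, NK cells and CD4 T cells. None of these directions reversed. Those of the other named genes, among them all named in dendritic cells and granulocytes, were not examined in this way. In 2 cases leaving out a granulocyte vehicle array could not be fitted. The causes were not tested.

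In the comparisons listed here array weights raised the share of all genes called as well, and that share follows each count of members. The number of members called with array weights was 7 for prolonged inhibitors in spleen macrophages (0 in the report; 0.809% of all genes), 7 at 4 h against prolonged (0; 6.24%), 5 for SB00526221 (2; 1.44%) and 5 for SB00526226 against pH 3 (0; 0.709%). In NK cells array weights called 1 at 4 h (3.34%), 3 at 4 h against prolonged (9.42%), 4 for SB00526228 against vehicle (5.17%) and 4 against SB00526222 (3.45%). In peritoneal macrophages they called 4 for SB00526222 early (21.9%) and 9 for SB00513404 late (35.5%). Without an experiment term 2 were called in NK cells at 4 h against prolonged (10.7%) and 6 in CD4 T cells for SB00526226 against SB00513404 (3.5%). The arrays of that CD4 T cell pair shared no experiment, so without this term compound and experiment cannot be told apart. For SB00526221 in spleen macrophages the number reported was 2, with 0.164% of all genes called. It was 0 with quantile normalization (0.00908%), 0 without an experiment term (0.0273%) and 0 with experiment as a random block (0.0273%). It was 1 with averaged probe sets (0.154%) and 1 without the arrays standing apart (0.229%), an alternative chosen after seeing the data. The E2f8 adjusted p for SB00526221 in limma ran from 0.0042 with array weights to 0.117 without an experiment term.

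At an unadjusted p under 0.05, spleen macrophages at 4 h against prolonged had 5 without an experiment term and 12 with a random block (21). SB00526222 had 10 without the arrays apart and 9 with experiment 8 split by hour (18). SB00526226 had 16 without an experiment term, 8 with a random block, 21 with array weights and 1 without the arrays apart (4). In CD4 T cells SB00526226 against pH 3 had 2 without an experiment term, 5 with array weights, 2 without the arrays apart and 4 with the hour split (8), and pH 3 against vehicle had 2 without the arrays apart (6).

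Between vehicle populations the number called was 12 for spleen macrophages against dendritic cells with quantile normalization (4 in the report, 52.1% of all genes with this setting). It was 21 against NK cells with array weights (9 in the report, 63.5% of all genes with this setting). Against CD4 T cells it was 31 with array weights (75.2%) and 13 with experiment as a fixed effect (52.9%), with 20 in the report. Against peritoneal macrophages it was 2 without a filter (0.213%), 11 with array weights (11.4%) and 9 with the fixed effect (2.71%). It was 0 against early vehicle (0.0319%), with 4 in the report (0.502%). NK cells against CD4 T cells gave 9 with array weights (37.6%) and 1 with the fixed effect (15.1%), with 3 in the report.

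Leaving out 1 array at a time gave 0 to 8 called members for prolonged inhibitors in spleen macrophages, 0 to 6 for SB00526221 and 0 to 2 for SB00526226 against pH 3 in CD4 T cells. Counts at an unadjusted p under 0.05 ran from 14 to 31 for prolonged inhibitors in spleen macrophages, 16 to 30 for SB00526221, 6 to 25 for SB00526222, 1 to 14 for SB00526226 and 12 to 25 at 4 h against prolonged. They ran from 4 to 27 after repeated treatment in peritoneal macrophages, 1 to 13 in NK cells at 4 h, 3 to 15 for SB00526226 against pH 3 and 0 to 17 for pH 3 against vehicle in CD4 T cells. Between vehicle populations the number of members called at the adjusted threshold ran from 3 to 7 for spleen macrophages against dendritic cells, 7 to 12 against NK cells, 18 to 27 against CD4 T cells, and 0 to 5 against peritoneal macrophages. Dendritic cells gave 6 to 14 against NK cells, 16 to 22 against CD4 T cells and 8 to 15 against peritoneal macrophages, and NK against CD4 T cells 0 to 3.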

Other observations

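In CD4 T cells 5 arrays of experiment 25 followed a single treatment and entered no comparison. At 3 h the mean of the 38 genes was 7.29 under SB00513404 and 7.29 under vehicle, with 1 array each. At 18 h it was 7.23 and 7.30 under SB00513404 and 7.26 on 1 array under SB00526222.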
